A study of Mus musculus with 8 samples.

Results

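The genes described here are the Adam, Prss and Klk proteases of the mouse testis. Members were the genes whose symbol starts with Adam (not Adamts), Prss or Klk and then a digit, with 1 probe set per gene, the one with the highest mean log2 intensity. The rule gave 79 of the 18194 genes on the array, 28 Adam, 31 Prss and 20 Klk genes. They were divided by where each is known to be used, from general knowledge of the genes, into 29 germ cell and sperm genes, 46 somatic genes, 1 epididymal gene (Adam7) and 3 genes that were not assigned (Klk1b7-ps, Prss32 and Prss58).

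ADAM proteins are membrane proteins with a disintegrin and a metalloprotease domain, and they work either as sheddases, which cut the outer part off growth factors, cytokines and receptors, or as adhesion proteins without protease activity. The testis carries a large set of germ cell ADAMs that are made in spermatocytes and spermatids, processed on the way to the sperm surface and needed for sperm transport and binding to the egg coat. PRSS proteins are trypsin-like serine proteases, several of them made by male germ cells and placed in the acrosome or on the sperm membrane. The kallikreins are secreted serine proteases, and in the mouse one branch of the family, the Klk1b genes, has multiplied into a dense cluster of close copies, some of them active in Leydig cells.

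RNA of whole testes, taken from male mice at postnatal day 28, was hybridised to 8 one-colour oligonucleotide arrays, 1 array per sample. All 8 mice were homozygous for a floxed allele of Dmrt1, which encodes a DM domain transcription factor of Sertoli cells and germ cells, on a mixed background (C57BL6/6J and 129). The Sf1-Cre group (n = 4) carried SF1-cre, the Dhh-Cre group (n = 2) carried Dhh-cre and the control group (n = 2) carried no Cre. The labels call both mutants Sertoli cell deletions, and Nr5a1, the gene of SF1, is in general also active in Leydig cells. The comparisons ask how loss of Dmrt1 in somatic cells, under each driver, changed these genes, and the 2 mutant comparisons share the same 2 control arrays.

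Dmrt1 had intensities of 137, 237, 198 and 185 on the Sf1-Cre arrays and 361 and 433 on the control arrays, a log2 difference of -1.09 ± 0.25 (SE; limma, adjusted p = 0.00375). The arrays labelled Dhh-Cre had 1380 and 979, above both controls (log2 difference 1.55 ± 0.28, limma, adjusted p = 0.0012). With each array centred on housekeeping genes, a scaling described further on, the Dhh-Cre difference turned to -0.43 and did not pass (limma, adjusted p = 0.148). That scaling lowers every difference from control, so Dmrt1 in Sf1-Cre could only stay lower. Germ cells also transcribe Dmrt1, and the probe set is not known to lie in the deleted part. In bulk testis RNA, fewer cells of a type and less RNA per cell cannot be told apart. The summed intensity of 34 spermatid genes was 6558 to 25668 on Sf1-Cre arrays, 2689 and 16682 on Dhh-Cre arrays, and 158258 and 175716 on control arrays. Macrophage genes summed to 43304 to 50542 on Sf1-Cre arrays, 36049 and 35835 on Dhh-Cre arrays, and 6179 and 6325 on control arrays. Leydig cell genes summed to 26455 to 36847 on Sf1-Cre arrays, 23668 and 29007 on Dhh-Cre arrays, and 7269 and 6284 on control arrays. No gene of these 3 lists was under log2 4 on all arrays. The part of cell makeup in the results below was not tested.

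Only genes that reached log2 4 (an intensity of 16) on 2 or more arrays were tested, which kept 53 members (25 Adam, 19 Prss and 9 Klk) and 13802 genes in all. A gene passed if its limma p-value, adjusted by the Benjamini-Hochberg method over all 13802 genes, was under 0.05. In Sf1-Cre against control, 34 members were lower, 16 higher and 3 did not pass, against 79.8% of all genes called, 33.2% lower and 46.6% higher. In Dhh-Cre against control, 34 members were lower, 15 higher and 4 did not pass, against 79.6% of all genes called, 30.5% lower and 49.1% higher. Most genes of these arrays therefore passed, and single counts are read against those shares.

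As deposited, the directions divided by class. Of the 27 germ cell members tested, 26 fell and 1 did not pass in Sf1-Cre testes, and 25 fell, 1 rose and 1 did not pass in Dhh-Cre testes. Of the 23 somatic members tested, 16 rose and 6 fell in Sf1-Cre testes, and 14 rose and 7 fell in Dhh-Cre testes. The somatic direction depended on the scaling. With housekeeping centring 7 somatic members rose and 10 fell in Sf1-Cre, and 6 rose and 12 fell in Dhh-Cre. With that centring 27 germ cell members fell in Sf1-Cre and 26 in Dhh-Cre. It lowers every difference of a line from control by the same amount, so it could not turn a fall into a rise. Over all genes tested, 1680 rose and 9904 fell with it in Sf1-Cre, and 1435 rose and 9287 fell in Dhh-Cre. The median log2 difference over all 29 germ cell members, low ones included, was -3.18 in Sf1-Cre and -5.88 in Dhh-Cre, while the median over all genes tested was 0.34 and 0.54. Of the 29 germ cell members, 19 averaged log2 4 or more on the Sf1-Cre arrays, 11 on the Dhh-Cre arrays and 28 on the control arrays. Adam1a, Adam21, Adam34, Adam6b and Prss51 reached log2 4 on control arrays only, so they entered the test through the group where they were high.

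**Figure D1:**
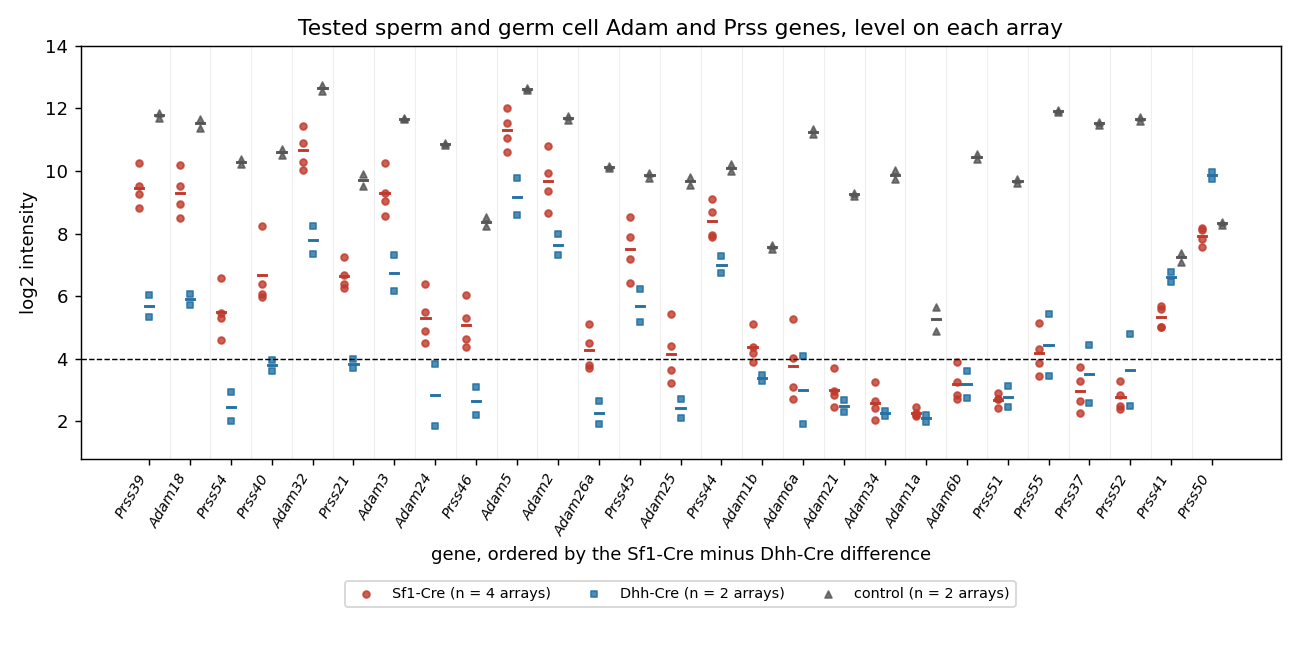
Log2 intensity (y axis) of the 27 tested germ cell Adam and Prss genes (x axis, ordered by the Sf1-Cre minus Dhh-Cre difference) on each array. Points are arrays (Sf1-Cre n = 4, Dhh-Cre n = 2, control n = 2), short bars are group means and the dashed line is log2 4; the control arrays lie highest for every gene shown but Prss50.

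Adam2 and the Adam1 genes encode the subunits of fertilin, an ADAM pair of sperm, and Adam2 is needed for the other ADAMs to reach the sperm surface. Adam2 had log2 intensities of 10.80, 9.95, 9.35 and 8.67 in Sf1-Cre testes, 7.31 and 7.98 in Dhh-Cre testes, and 11.64 and 11.77 in control testes. No group overlapped another. The differences were -2.01 ± 0.52 (adjusted p = 0.00788) in Sf1-Cre and -4.06 ± 0.61 (adjusted p = 0.000401) in Dhh-Cre, both limma, and the Sf1-Cre call was lost without control replicate 2 (adjusted p = 0.0535). Adam1b, the partner on the sperm surface, had log2 5.10, 4.36, 4.18 and 3.90 in Sf1-Cre testes, 3.27 and 3.46 in Dhh-Cre testes, and 7.62 and 7.52 in control testes. That was 9.08-fold lower in Sf1-Cre and at least 11.9-fold lower in Dhh-Cre, where both arrays lay under log2 4 and the fold was computed against that value.

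Adam1a encodes the partner that stays in the endoplasmic reticulum of germ cells. Its own probe set was under log2 4 on all 6 mutant arrays (1.96 to 2.44) and reached 4.89 and 5.66 on the control arrays, so that it fell at least 2.42-fold in both lines. The gene lies beside Mapkapk5 in the annotation, and 2 probe sets listed under both symbols were far lower in mutants as well. One of them averaged log2 5.23 in Sf1-Cre testes, 3.87 in Dhh-Cre testes and 10.67 in control testes, and the other log2 4.70 in Sf1-Cre testes, 3.49 in Dhh-Cre testes and 10.70 in control testes.

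Adam3 is required for sperm to pass from the uterus into the oviduct, and it lies on chromosome 8 (24677232 to 24726377, GRCm38.p6) between Adam18 and Adam5. Adam3 had log2 10.24, 9.29, 9.05 and 8.57 in Sf1-Cre testes, 6.17 and 7.30 in Dhh-Cre testes, and 11.68 and 11.65 in control testes. The groups were in the same order as for Adam2 and again without overlap: Adam3 fell by 2.38 ± 0.47 on the log2 scale in Sf1-Cre (limma, adjusted p = 0.00181) and by 4.93 ± 0.54 in Dhh-Cre (adjusted p = 7.42e-05). Adam18 had log2 10.19, 9.52, 8.95 and 8.48 in Sf1-Cre testes, 5.70 and 6.08 in Dhh-Cre testes, and 11.66 and 11.38 in control testes. This ADAM without a working protease site was 49.6-fold lower in Dhh-Cre than in control.

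Adam5 and Adam32 follow Adam3 on chromosome 8, and both fell as well. Adam32 had log2 11.43, 10.91, 10.29 and 10.04 in Sf1-Cre testes, 7.33 and 8.25 in Dhh-Cre testes, and 12.57 and 12.74 in control testes. Adam5 had log2 12.03, 11.55, 11.06 and 10.60 in Sf1-Cre testes, 8.58 and 9.76 in Dhh-Cre testes, and 12.65 and 12.58 in control testes. The Adam5 difference in Sf1-Cre, -1.30 ± 0.44 (limma, adjusted p = 0.0244), was the smallest fall among the tested germ cell Adam genes, and it no longer passed without control replicate 1 (adjusted p = 0.107), control replicate 2 (0.0947) or Sf1-Cre replicate 3 (0.0551).

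The rest of the germ cell Adam genes, among them the testases, were at or near the low-value limit in mutant testes. Adam24, known as testase 1 and linked in mice to the block against a further sperm entering the egg, had log2 6.37, 5.49, 4.87 and 4.49 in Sf1-Cre testes, 1.85 and 3.83 in Dhh-Cre testes, and 10.88 and 10.82 in control testes. It was 46.7-fold lower in Sf1-Cre and at least 116-fold lower in Dhh-Cre. Adam25 was 46.0-fold and at least 51.3-fold lower, and Adam26a 57.7-fold and at least 69.8-fold lower, in Sf1-Cre and Dhh-Cre. Adam34 was at least 59.2-fold lower and Adam21 at least 38.1-fold lower in both lines.

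Adam6a and Adam6b, close copies of each other, were among the germ cell Adam genes with the largest differences. Adam6a had log2 5.28, 4.03, 3.08 and 2.69 in Sf1-Cre testes, 1.92 and 4.07 in Dhh-Cre testes, and 11.34 and 11.18 in control testes. Adam6b had 2.72 to 3.89 in Sf1-Cre testes, 2.75 and 3.59 in Dhh-Cre testes, and 10.37 and 10.55 in control testes. Because a probe can bind both, their separate values are uncertain, and a probe set listed under both symbols averaged log2 2.19 in Sf1-Cre testes, 1.65 in Dhh-Cre testes and 9.38 in control testes. In all, 14 of 14 tested germ cell Adam genes fell in each line. Adam4, the remaining germ cell Adam gene, was under log2 4 on every array (1.92 to 2.47).

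In Sf1-Cre against control, the 3 largest falls among all members were those of the sperm serine proteases Prss52, Prss37 and Prss55. Prss37 is an inactive protease relative that the mouse needs for ADAM3 processing in sperm. It had log2 3.72, 3.29, 2.63 and 2.27 in Sf1-Cre testes, 2.59 and 4.43 in Dhh-Cre testes, and 11.58 and 11.46 in control testes. That was at least 184-fold lower in Sf1-Cre and at least 159-fold lower in Dhh-Cre, with the 2 mutant groups overlapping.

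Prss55, Prss51 and Prss52 are neighbours on chromosome 14 (64075435 to 64113751), and all 3 averaged at most log2 4.43 in each line. Prss55, a membrane-anchored protease required for sperm migration into the oviduct in mice, had log2 5.14, 4.29, 3.85 and 3.44 in Sf1-Cre testes, 3.45 and 5.41 in Dhh-Cre testes, and 11.94 and 11.89 in control testes. It was 213-fold lower in Sf1-Cre and 179-fold lower in Dhh-Cre. Prss52 had 3.29, 2.84, 2.40 and 2.49 in Sf1-Cre testes, 2.47 and 4.79 in Dhh-Cre testes, and 11.74 and 11.61 in control testes, at least 204-fold and at least 156-fold lower. Prss51 fell at least 51.4-fold in both lines. For these neighbours, unlike for most other germ cell members, the mutant groups overlapped and the difference between the lines did not pass (Prss55, -0.25 ± 0.59, limma, adjusted p = 0.792; Prss52, -0.87 ± 0.57, adjusted p = 0.304).

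Prss39 and Prss40 encode acrosomal proteases of mouse sperm, and Prss21 encodes testisin, a lipid-anchored protease of the sperm membrane. Prss39 had log2 10.27, 9.51, 9.25 and 8.81 in Sf1-Cre testes, 5.32 and 6.03 in Dhh-Cre testes, and 11.86 and 11.70 in control testes. The 3 groups were well apart: it fell by 2.32 ± 0.39 in Sf1-Cre (limma, adjusted p = 0.000765) and by 6.10 ± 0.45 in Dhh-Cre (adjusted p = 1.17e-05). Prss21 had 7.25, 6.68, 6.27 and 6.37 in Sf1-Cre testes, 3.69 and 3.98 in Dhh-Cre testes, and 9.90 and 9.53 in control testes, 8.42-fold and at least 52.6-fold lower. Prss40 was 15.3-fold and at least 97.3-fold lower, and Prss54 28.2-fold and at least 78.4-fold lower, in Sf1-Cre and Dhh-Cre.

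On chromosome 9, Prss44, Prss45, Prss46 and Prss50 follow each other among the members (110813919 to 110864629) and differed in direction. Prss44 was 3.22-fold lower in Sf1-Cre and 8.56-fold lower in Dhh-Cre, Prss45 5.14-fold and 18.1-fold lower, and Prss46 9.83-fold and at least 20.7-fold lower. Prss50, the next gene along and a testis serine protease also called TSP50, had log2 8.10, 8.19, 7.84 and 7.57 in Sf1-Cre testes, 9.75 and 9.97 in Dhh-Cre testes, and 8.37 and 8.27 in control testes. It was the only tested germ cell member that rose in either line as deposited: by 1.54 ± 0.23 in Dhh-Cre (limma, adjusted p = 0.000392), against -0.40 ± 0.20 in Sf1-Cre (adjusted p = 0.0984), although the Dhh-Cre difference turned to -0.44 (adjusted p = 0.187) when arrays were centred on housekeeping genes. Prss42, upstream of Prss44, reached log2 4 on control replicate 1 only, at 5.50, and lay at 2.28 to 3.67 on the other arrays.

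Prss41, on chromosome 17 (23836785 to 23844219) beside Prss32 and Prss21, passed in Sf1-Cre, and its call in Dhh-Cre depended on the setting. It had log2 5.68, 5.57, 5.0 and 5.01 in Sf1-Cre testes, 6.44 and 6.78 in Dhh-Cre testes, and 7.39 and 7.10 in control testes. The 3 groups did not overlap, and the Sf1-Cre fall passed (-1.93 ± 0.25, limma, adjusted p = 0.000174). The Dhh-Cre difference of -0.63 ± 0.29 did not (adjusted p = 0.0718), but it passed without Sf1-Cre replicate 1 (adjusted p = 0.0496), in a fit of the 2 groups alone (0.0405), after quantile normalization (-0.76, 0.034), with a replicate block (0.0464) and with housekeeping centring (-2.61, 0.000121). Spermatogonial genes summed to 6079 to 9164 on Sf1-Cre arrays, 10143 and 10808 on Dhh-Cre arrays, and 11290 and 11586 on control arrays. The order of these sums was that of Prss41, but the single genes of the list were divided. Of 15 tested, 7 were higher and 4 lower in Dhh-Cre than in control (median over all 16 measured 0.68 log2), and 4 higher and 7 lower in Sf1-Cre. The part of spermatogonia in the Prss41 result was not tested.

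**Figure D2:**
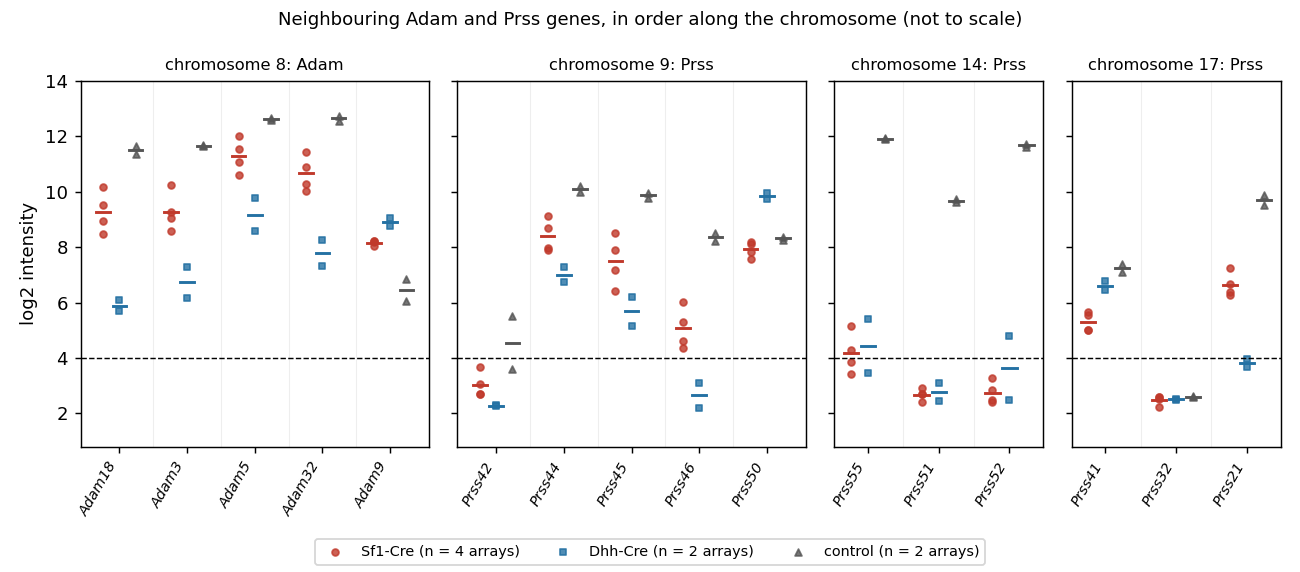
Log2 intensity (y axis) of neighbouring Adam and Prss genes on chromosomes 8, 9, 14 and 17, in genomic order and not to scale, on each array. Points are arrays (Sf1-Cre n = 4, Dhh-Cre n = 2, control n = 2), short bars are group means and the dashed line is log2 4; as deposited, Adam9 and Prss50 are higher in Dhh-Cre than in control while the genes beside them are lower.

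The plot of neighbouring genes places the somatic Adam9 at the end of the chromosome 8 run, directly after Adam32. Adam9, a widely expressed sheddase, had log2 8.22, 8.18, 8.23 and 8.04 in Sf1-Cre testes, 8.78 and 9.04 in Dhh-Cre testes, and 6.87 and 6.06 in control testes. It was higher than control in both lines as deposited while 4 neighbouring sperm genes were lower. With housekeeping centring neither rise passed: the Sf1-Cre difference of 1.70 became -0.20 (limma, adjusted p = 0.44) and the Dhh-Cre difference of 2.45 became 0.47 (adjusted p = 0.147).

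Since Dmrt1 is the gene deleted, promoter windows were searched for ACANTGT, the core of the element that DM domain proteins bind, on both strands. RefSeq windows of the 250 bases before a transcript start (GRCm38.p6) were present for 57 of the 79 members (68 windows). The core occurred in 5 of 68 member windows (7.35%) and in 6.47% of all 32851 windows, so the members' share was close to that of all promoters. The full cyclic AMP response element TGACGTCA, recognised by CREM in spermatids, was in 0 member windows and in 1.55% of all, and its shorter form TGACGT was in 4 member windows (5.88%) and in 6.47% of all. The tested germ cell genes with the DM core were Prss46, Prss21 and Adam21, and their windows are shown with the core in capitals, each read 5′ to 3′ toward the gene.
Prss46 (chr9:110844256-110844505, plus strand): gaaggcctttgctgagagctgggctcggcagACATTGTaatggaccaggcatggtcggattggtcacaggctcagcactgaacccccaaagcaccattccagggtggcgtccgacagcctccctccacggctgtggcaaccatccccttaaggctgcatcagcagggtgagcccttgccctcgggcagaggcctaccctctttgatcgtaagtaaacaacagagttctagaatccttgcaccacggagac
Prss21 (chr17:23867822-23868071, plus strand): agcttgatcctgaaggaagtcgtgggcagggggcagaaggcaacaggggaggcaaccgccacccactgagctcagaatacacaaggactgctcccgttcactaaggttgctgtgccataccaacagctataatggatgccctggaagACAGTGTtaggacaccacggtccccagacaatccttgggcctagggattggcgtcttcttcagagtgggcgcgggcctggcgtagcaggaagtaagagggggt
Adam21 (chr12:81568475-81568724, minus strand): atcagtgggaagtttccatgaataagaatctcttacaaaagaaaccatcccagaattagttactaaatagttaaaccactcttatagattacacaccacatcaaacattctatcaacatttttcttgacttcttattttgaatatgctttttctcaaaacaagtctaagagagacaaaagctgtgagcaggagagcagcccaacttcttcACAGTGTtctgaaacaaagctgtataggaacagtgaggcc
All 3 of these genes fell in both lines, as did germ cell genes whose windows lack these letters, and a match in a window is a description and not a binding site.

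Genes that help sperm ADAMs mature were followed as a separate list of 15 genes, 14 of them measured and 12 tested. In Sf1-Cre 6 fell and 3 rose, and in Dhh-Cre 6 fell and 4 rose. Over all genes tested, 33.2% fell and 46.6% rose in Sf1-Cre, and 30.5% fell and 49.1% rose in Dhh-Cre. The medians over the 14 measured genes were 0.12 and 0.08 log2, so the list did not move as a whole. Calr3, the chaperone calsperin needed for ADAM3 in the mouse, had log2 5.45, 4.70, 4.71 and 4.8 in Sf1-Cre testes, 4.58 and 5.40 in Dhh-Cre testes, and 11.95 and 11.92 in control testes, differences of -7.02 ± 0.29 (limma, adjusted p = 7.21e-07) and -6.94 ± 0.34 (adjusted p = 2.51e-06). Ace, whose germ cell form is also needed for ADAM3 on sperm, was 7.35 to 7.41 in Sf1-Cre testes, 7.37 and 7.35 in Dhh-Cre testes, and 11.16 and 10.88 in control testes. For neither did the difference between the lines pass. Pdilt is a disulfide isomerase relative with a part in ADAM3 folding. It had log2 10.75, 9.52, 8.92 and 8.62 in Sf1-Cre testes, 4.31 and 6.45 in Dhh-Cre testes, and 12.87 and 13.0 in control testes. Cmtm2b fell by 1.58 in Sf1-Cre and 5.03 in Dhh-Cre on the log2 scale. Tpst2, a tyrosine sulfotransferase, rose by 1.77 ± 0.17 in Sf1-Cre (limma, adjusted p = 3.31e-05) and by 1.46 ± 0.19 in Dhh-Cre (adjusted p = 0.000208). These are values as deposited, and the sign of differences of this size can depend on the scaling.

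The list of acrosome and sperm-egg fusion genes moved with the germ cell proteases. Of 22 tested genes, 20 fell and 2 did not pass in Sf1-Cre, and 21 fell and 1 did not pass in Dhh-Cre, with medians over all 24 measured genes of -4.10 and -5.88 log2. Spaca6, a sperm protein needed for fusion with the egg, was 3.76 to 4.20 in Sf1-Cre testes, 2.96 and 3.30 in Dhh-Cre testes, and 7.93 and 7.91 in control testes. Spaca4 fell by 4.31 and 5.18, and Zan, the zonadhesin gene, by 4.66 and 6.11 on the log2 scale, in Sf1-Cre and Dhh-Cre.

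The germ cell falls were graded among arrays of the same genotype. Of the 26 germ cell members lower in Sf1-Cre, Sf1-Cre replicate 1 had the highest level of its group for 26, Sf1-Cre replicate 4 the lowest for 21 and Sf1-Cre replicate 3 for the other 5. Dhh-Cre replicate 2 was above Dhh-Cre replicate 1 for 26 of these 26. The spermatid marker sums had the same order, 25668, 14786, 10002 and 6558 on Sf1-Cre arrays and 2689 and 16682 on Dhh-Cre arrays. Without Sf1-Cre replicate 1 the number of members lower than control was 34, as with it.

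Somatic ADAMs rose in both lines as deposited. Of 10 tested somatic Adam genes, 8 rose and 2 fell in each line, with medians over all 12 of 1.5 log2 in Sf1-Cre and 1.24 in Dhh-Cre. Centring each array on the median of 13 housekeeping genes set the median difference of all genes at -1.57 instead of 0.34 in Sf1-Cre against control, and at -1.44 instead of 0.54 in Dhh-Cre against control, so the sign of a difference smaller than about 2 log2 units can depend on the scaling. Those housekeeping genes were not level: 9 of 13 rose and 1 fell in each line. For Adam17 and Adam10, differences are therefore also given as distances from the median of all genes, which no centring moves.

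Adam12, or meltrin alpha, is a protease of mesenchymal and muscle cells. It had log2 8.68, 8.90, 9.46 and 9.36 in Sf1-Cre testes, 8.09 and 8.08 in Dhh-Cre testes, and 4.93 and 4.41 in control testes. It was 21.6-fold higher in Sf1-Cre (log2 4.43 ± 0.26, limma, adjusted p = 2.96e-06) and 10.7-fold higher in Dhh-Cre. Adam23, a protease-dead ADAM best known from neurons, had 10.28, 10.91, 10.50 and 10.64 in Sf1-Cre testes, 10.35 and 10.24 in Dhh-Cre testes, and 7.03 and 7.06 in control testes. It was 11.6-fold and 9.50-fold higher, and the 2 mutant groups overlapped.

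Adam8, an ADAM of macrophages and neutrophils, had log2 7.14, 7.43, 7.82 and 8.47 in Sf1-Cre testes, 6.36 and 6.26 in Dhh-Cre testes, and 4.05 and 4.24 in control testes. It was 11.9-fold higher in Sf1-Cre and 4.49-fold higher in Dhh-Cre. All 18 of 18 macrophage genes were higher in each line, with median differences of 3.99 and 3.38 log2, and the part of macrophage number in the Adam8 values was not tested. Adam12, Adam23 and Adam8 were higher in Sf1-Cre than in control under every setting tried, housekeeping centring included. With that centring the Dhh-Cre difference of Adam8 was 0.19 and no longer passed (limma, adjusted p = 0.656).

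The general sheddases rose less. Adam17, which releases tumour necrosis factor and the ligands of the EGF receptor, had log2 9.54, 9.71, 9.54 and 9.46 in Sf1-Cre testes, 9.44 and 9.71 in Dhh-Cre testes, and 8.21 and 7.73 in control testes. Adam10, which cuts Notch receptors, had 10.25, 10.37, 10.39 and 10.29 in Sf1-Cre testes, 10.65 and 10.71 in Dhh-Cre testes, and 9.57 and 9.53 in control testes. The Adam17 differences of 1.59 and 1.6 lay 1.25 and 1.07 above the median of all genes, and those of Adam10, 0.78 and 1.13, lay 0.44 and 0.60 above it, in Sf1-Cre and Dhh-Cre. With housekeeping centring the differences of both genes turned negative (Adam17 -0.32 and -0.38, Adam10 -1.13 and -0.85). Those of Adam10 passed as lower than control, and those of Adam17 did not pass (limma, adjusted p = 0.178 in Sf1-Cre and 0.174 in Dhh-Cre). Adam15 and Adam33 also rose as deposited and turned negative with that centring. The Adam15 differences as deposited were 1.40 and 1.26. Adam33 was under log2 4 on both control arrays (3.15 and 3.28), so it entered the test and the count of rises through the mutant groups. It was at least 1.97-fold higher in Sf1-Cre and at least 1.36-fold higher in Dhh-Cre. The Dhh-Cre call of Adam33 was lost when values under log2 4 were set to 4.

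Adam11 and Adam22, which like Adam23 are protease-dead and known from neurons, were the 2 somatic Adam genes that fell in both lines. Adam22 had 4.8, 4.38, 4.15 and 4.18 in Sf1-Cre testes, 4.02 and 3.48 in Dhh-Cre testes, and 5.24 and 5.09 in control testes, and its Sf1-Cre fall was lost without control replicate 1 (limma, adjusted p = 0.0903). Adam11 was under log2 4 on all mutant arrays and at 4.90 and 4.71 on control arrays, at least 1.75-fold lower. Adam19, or meltrin beta, and Adam28, an ADAM of lymphocytes, stayed at or under log2 4.26 on all arrays and were not tested.

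**Figure D3:**
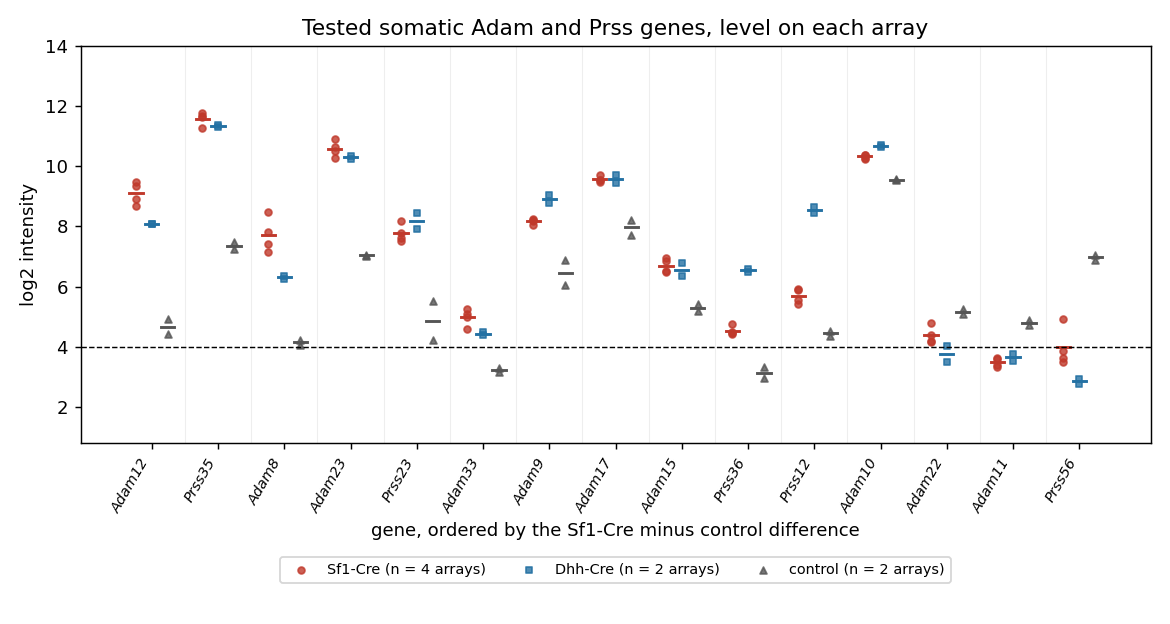
Log2 intensity (y axis) of the 15 tested somatic Adam and Prss genes (x axis, ordered by the Sf1-Cre minus control difference) on each array. Points are arrays (Sf1-Cre n = 4, Dhh-Cre n = 2, control n = 2), short bars are group means and the dashed line is log2 4; Adam12, Prss35, Adam8 and Adam23 lie farthest above control in Sf1-Cre, while Prss12 and Prss36 are higher in Dhh-Cre than in Sf1-Cre.

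Prss35 and Prss23, related proteases known from the follicles and stroma of the mouse ovary, rose in both lines. Prss35 had log2 11.63, 11.76, 11.68 and 11.28 in Sf1-Cre testes, 11.29 and 11.38 in Dhh-Cre testes, and 7.49 and 7.24 in control testes. It was 18.7-fold higher in Sf1-Cre (limma, adjusted p = 6.97e-07) and 15.6-fold higher in Dhh-Cre (adjusted p = 3.02e-06), with the mutant groups overlapping. Prss23 had 7.51, 7.63, 7.78 and 8.18 in Sf1-Cre testes, 7.90 and 8.46 in Dhh-Cre testes, and 4.23 and 5.51 in control testes, 7.49-fold and 9.90-fold higher. Of the granulosa cell list, 7 of 10 tested genes rose in Sf1-Cre and 6 in Dhh-Cre, while 2 fell in each line (Irx5 and Lhx2, named after their values were seen). Over all genes tested, 46.6% rose and 33.2% fell in Sf1-Cre, and 49.1% rose and 30.5% fell in Dhh-Cre. The medians over the 12 list genes measured were 1.9 and 1.29 log2, and the sign of differences of this size can depend on the scaling. Differences of the tested list genes ran from -5.46 to 6.91 log2 in Sf1-Cre and from -5.55 to 4.17 in Dhh-Cre. Of the 12 list genes measured, only Esr2 and Irx3 were under log2 4 on all arrays.

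Prss12 and Prss36 were higher than control in both lines and higher in Dhh-Cre than in Sf1-Cre. Prss12, or neurotrypsin, cuts the matrix protein agrin. It had log2 5.90, 5.55, 5.91 and 5.41 in Sf1-Cre testes, 8.65 and 8.46 in Dhh-Cre testes, and 4.37 and 4.53 in control testes, 2.37-fold and 17.2-fold higher than control. Prss36, or polyserase-2, had 4.49, 4.47, 4.41 and 4.76 in Sf1-Cre testes, 6.58 and 6.49 in Dhh-Cre testes, and 3.33 and 2.95 in control testes, at least 1.45-fold and at least 5.80-fold higher. Sertoli cell genes summed to 43156 to 48056 on Sf1-Cre arrays, 61278 and 61483 on Dhh-Cre arrays, and 29496 and 30822 on control arrays. Peritubular genes summed to 9522 to 10642 on Sf1-Cre arrays, 12152 and 13972 on Dhh-Cre arrays, and 6583 and 6443 on control arrays. Both sums had the same order of groups as Prss12 and Prss36. Of 20 tested Sertoli genes, a list that holds Dmrt1, 13 rose and 4 fell in Sf1-Cre, and 18 rose and 0 fell in Dhh-Cre. The part of either cell type in the result was not tested. Under housekeeping centring the Dhh-Cre rises of Prss12 and Prss36 remained, and the Sf1-Cre differences became -0.66 for Prss12 and -0.52 for Prss36.

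Prss56, known for its part in eye growth, went against the other somatic serine proteases. It had log2 4.91, 3.87, 3.50 and 3.64 in Sf1-Cre testes, 2.94 and 2.75 in Dhh-Cre testes, and 7.06 and 6.88 in control testes, at least 6.70-fold and at least 7.84-fold lower. The other 10 of the 15 somatic Prss genes, the pancreatic trypsin Prss2, the channel-activating Prss8 and the thymic Prss16 among them, were too low on all but at most 1 array to be tested.

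Regulators and substrates of the sheddases were examined as 2 lists. Of 15 tested regulators of ADAM10 and ADAM17, 11 rose and 2 fell in each line. Over all genes tested, 46.6% were higher and 33.2% lower in Sf1-Cre, and 49.1% and 30.5% in Dhh-Cre. The medians over all 18 measured regulators were 1.21 log2 in Sf1-Cre and 1.76 in Dhh-Cre. Differences of that size, under about 2 log2 units, can change sign with the scaling. Timp1, an inhibitor of metalloproteases, had log2 9.76, 9.70, 9.69 and 9.77 in Sf1-Cre testes, 10.42 and 10.11 in Dhh-Cre testes, and 4.49 and 5.22 in control testes, and Timp3, the tissue inhibitor that blocks ADAM17, rose by 2.58 in each line. Furin, the convertase that removes the ADAM prodomain, rose by 1.96 in Sf1-Cre and 2.18 in Dhh-Cre. The 2 falls were Tspan33 and Pcsk4; Pcsk4, named after its values were seen, is a convertase of germ cells that processes sperm ADAMs, and it had 6.41 to 7.36 in Sf1-Cre testes, 6.36 and 6.25 in Dhh-Cre testes, and 9.74 on both control arrays.

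Among 21 tested sheddase substrates, 16 rose and 4 fell in Sf1-Cre, and 15 rose and 4 fell in Dhh-Cre, to be read against the same shares of all genes. The medians over all 27 measured substrates were 1.39 log2 in Sf1-Cre and 1.33 in Dhh-Cre, so their sign too can depend on the scaling. Kitl, the Sertoli cell ligand of the germ cell receptor KIT, had log2 10.45, 10.26, 10.90 and 10.62 in Sf1-Cre testes, 9.89 and 9.68 in Dhh-Cre testes, and 6.77 and 6.42 in control testes. Icam1, an adhesion receptor for leukocytes, rose by 3.60 in Sf1-Cre and 3.63 in Dhh-Cre. Tnfrsf1b, a tumour necrosis factor receptor of immune cells, was at least 17.7-fold higher in Sf1-Cre and at least 2.14-fold higher in Dhh-Cre, and its difference between the lines was 3.05 ± 0.28 (limma, adjusted p = 0.00054).

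The kallikreins did not move as a group. Of 20 Klk genes 9 could be tested; 4 rose and 4 fell in Sf1-Cre, and 2 rose and 5 fell in Dhh-Cre. Klk1b7-ps, an annotated pseudogene, is counted with the falls. Of the 11 that were not tested, Klk4 to Klk13 and Klk1b11, no array exceeded log2 3.87. The tested genes all lie in 1 cluster on chromosome 7, from Klk1b7-ps and Klk1b8 (43950666 to 43954944) past Klk1b1, Klk1b21, Klk1b27, Klk1b16, Klk1b24 and Klk1b5 to Klk1 (44225360 to 44229622). The annotated span of Klk1b21 (44004616 to 44106583) contains Klk1b27 (44052290 to 44056712), and probes for one copy can bind another, so values of single Klk1b genes are uncertain.

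**Figure D4:**
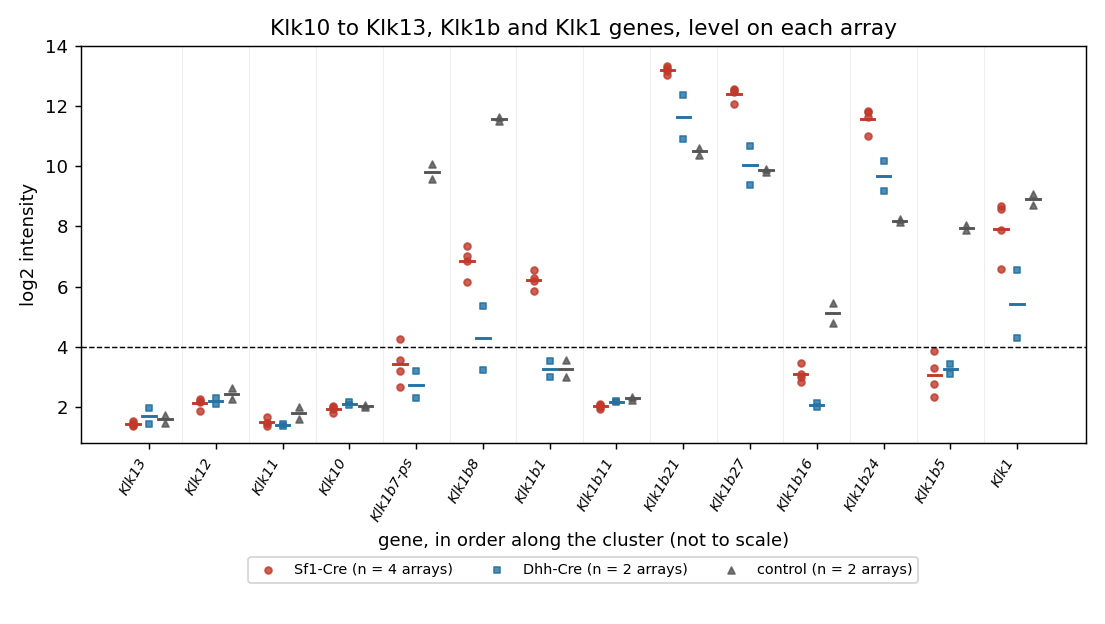
Log2 intensity (y axis) of Klk10 to Klk13, the Klk1b genes and Klk1, in genomic order along the chromosome 7 cluster and not to scale, on each array. Points are arrays (Sf1-Cre n = 4, Dhh-Cre n = 2, control n = 2), short bars are group means and the dashed line is log2 4; Klk1b1, Klk1b21, Klk1b27 and Klk1b24 are higher in Sf1-Cre than in control, and Klk1b7-ps, Klk1b8, Klk1b16 and Klk1b5 are lower.

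Klk1b21, Klk1b24 and Klk1b27 are the kallikreins known from mouse Leydig cells. Klk1b24 had log2 11.0, 11.63, 11.82 and 11.84 in Sf1-Cre testes, 9.18 and 10.19 in Dhh-Cre testes, and 8.23 and 8.16 in control testes, 10.4-fold and 2.81-fold higher than control. Klk1b21 had 13.04, 13.17, 13.27 and 13.33 in Sf1-Cre testes, 10.92 and 12.38 in Dhh-Cre testes, and 10.39 and 10.60 in control testes, 6.52-fold and 2.22-fold higher. The Dhh-Cre rise of Klk1b21, 1.15 on the log2 scale (limma, adjusted p = 0.03), was lost without control replicate 1 (adjusted p = 0.122), control replicate 2 (0.0757) or Dhh-Cre replicate 2 (0.118), and leaving out 1 array moved it between 0.42 and 1.88. Klk1b27 had 12.06, 12.57, 12.47 and 12.52 in Sf1-Cre testes, 9.39 and 10.68 in Dhh-Cre testes, and 9.81 and 9.91 in control testes.

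Klk1b27 was 5.85-fold higher in Sf1-Cre than in control (limma, adjusted p = 0.000197), and in Dhh-Cre, where 1 array lay below and 1 above both controls, the difference was 0.18 ± 0.39 (adjusted p = 0.688). All 4 Sf1-Cre arrays were above both Dhh-Cre arrays for these 3 genes. Of 9 measured Leydig cell genes, 8 rose in Sf1-Cre and 7 in Dhh-Cre, and between the lines 1 passed, lower in Sf1-Cre. With housekeeping centring the Sf1-Cre rise of Klk1b24 still passed (1.47, adjusted p = 0.00256), those of Klk1b21 (0.80, 0.0855) and Klk1b27 (0.64, 0.123) did not, and the Dhh-Cre differences of all 3 turned negative (-0.49, -0.83 and -1.80).

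Klk1b1 reached log2 4 on the Sf1-Cre arrays only. It had log2 6.19, 5.86, 6.55 and 6.27 in Sf1-Cre testes, 3.00 and 3.51 in Dhh-Cre testes, and 2.98 and 3.56 in control testes. It was at least 4.66-fold higher in Sf1-Cre than in control and than in Dhh-Cre, while Dhh-Cre and control, both under log2 4, could not be told apart. It thus entered the test through Sf1-Cre.

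Other copies in the cluster fell. Klk1b8 had log2 6.14, 6.86, 7.36 and 7.0 in Sf1-Cre testes, 3.24 and 5.34 in Dhh-Cre testes, and 11.65 and 11.51 in control testes, 26.7-fold and 157-fold lower. Klk1b5 was at 2.33 to 3.86 in Sf1-Cre testes, 3.43 and 3.09 in Dhh-Cre testes, and 7.87 and 8.05 in control testes, at least 15.6-fold lower in both lines. Klk1b7-ps was at least 54.0-fold and at least 56.6-fold lower, and Klk1b16, at 4.78 and 5.47 on control arrays, at least 2.18-fold lower in both lines. Prss58, another member that was not assigned to a class, was 119-fold lower in Sf1-Cre and 232-fold lower in Dhh-Cre.

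Klk1, the tissue kallikrein that frees kinins from kininogen, had log2 6.57, 7.88, 8.58 and 8.68 in Sf1-Cre testes, 4.29 and 6.55 in Dhh-Cre testes, and 8.70 and 9.09 in control testes. The Dhh-Cre fall passed (-3.48 ± 0.85, limma, adjusted p = 0.00572). The Sf1-Cre difference of -0.97 ± 0.74 did not (adjusted p = 0.255), but it passed with a replicate block (-1.67, adjusted p = 0.0212) and with housekeeping centring (-2.87, 0.00429). Of 3 further Klk1 probe sets above the low-value limit, 2 had the same signs and 1 had the opposite, with differences of 0.39 in Sf1-Cre and 1.27 in Dhh-Cre. Kng1, the kininogen gene, was at least 7.53-fold lower in Sf1-Cre and at least 7.68-fold lower in Dhh-Cre. The protease inhibitor Serpina3n was at least 37.0-fold and at least 27.3-fold higher, and Serpina5 was 2.19-fold and 2.82-fold higher. The Serpina5 differences are small enough for their sign to depend on the scaling. Of the 6 tested kallikrein substrates and inhibitors, 2 rose and 2 fell in Sf1-Cre, and 4 rose and 2 fell in Dhh-Cre.

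The promoter windows of Klk1b copies that moved in opposite directions are shown for comparison, from RefSeq (GRCm38.p6), 250 bases before the start and 5′ to 3′ toward the gene. Klk1b27, Klk1b24, Klk1b21 and Klk1b1 were higher in Sf1-Cre than in control, and Klk1b8 and Klk1b5 were lower. Klk1b27 is in lower case throughout, and capitals in the others mark bases that differ from Klk1b27 where the pair could be aligned.
Klk1b27 (chr7:44052040-44052289, plus strand): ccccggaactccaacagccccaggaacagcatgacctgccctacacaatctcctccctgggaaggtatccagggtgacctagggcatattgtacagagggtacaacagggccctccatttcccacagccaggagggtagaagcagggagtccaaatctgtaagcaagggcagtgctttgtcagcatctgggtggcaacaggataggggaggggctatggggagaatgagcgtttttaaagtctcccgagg
Klk1b24 (chr7:44187986-44188235, plus strand): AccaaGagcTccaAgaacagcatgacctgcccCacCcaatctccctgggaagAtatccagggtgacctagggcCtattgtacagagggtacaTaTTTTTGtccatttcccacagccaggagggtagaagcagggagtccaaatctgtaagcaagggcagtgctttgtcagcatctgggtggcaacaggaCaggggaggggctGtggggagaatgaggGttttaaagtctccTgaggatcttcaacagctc
Klk1b21 (chr7:44102042-44102291, plus strand): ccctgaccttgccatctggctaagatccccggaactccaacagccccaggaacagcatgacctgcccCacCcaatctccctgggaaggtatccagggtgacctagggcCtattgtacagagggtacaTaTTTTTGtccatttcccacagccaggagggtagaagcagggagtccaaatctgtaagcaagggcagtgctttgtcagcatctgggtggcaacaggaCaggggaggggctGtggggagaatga
Klk1b1 (chr7:43966501-43966750, plus strand): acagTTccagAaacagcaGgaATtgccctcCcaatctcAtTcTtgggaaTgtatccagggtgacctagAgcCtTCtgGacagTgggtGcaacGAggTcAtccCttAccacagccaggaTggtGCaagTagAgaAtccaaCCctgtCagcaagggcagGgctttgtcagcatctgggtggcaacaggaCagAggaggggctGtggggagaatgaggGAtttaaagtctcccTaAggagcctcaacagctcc
Klk1b8 (chr7:43950416-43950665, plus strand): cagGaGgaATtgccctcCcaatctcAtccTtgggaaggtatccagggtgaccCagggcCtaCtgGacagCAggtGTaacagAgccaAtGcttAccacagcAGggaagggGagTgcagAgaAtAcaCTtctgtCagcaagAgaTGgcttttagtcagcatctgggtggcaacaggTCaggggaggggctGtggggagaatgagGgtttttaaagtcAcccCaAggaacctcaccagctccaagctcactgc
Klk1b5 (chr7:44216224-44216473, plus strand): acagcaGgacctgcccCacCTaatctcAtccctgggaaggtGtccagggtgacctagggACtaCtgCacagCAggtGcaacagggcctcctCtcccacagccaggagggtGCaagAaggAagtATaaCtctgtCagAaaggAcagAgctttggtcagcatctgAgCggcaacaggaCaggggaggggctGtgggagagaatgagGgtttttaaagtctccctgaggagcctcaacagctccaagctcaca
Over aligned bases the Klk1b27 window was 94.6% identical to that of Klk1b21 and 91.9% to that of Klk1b24, and Klk1b24 and Klk1b21 were 97.7% identical. The Klk1b27 window was 82.5% identical to Klk1b1, 82.2% to Klk1b8 and 86.5% to Klk1b5. The copies that rose together with Klk1b27 in the Leydig cell trio thus had the closest windows, while Klk1b5, which fell, was closer to Klk1b27 than Klk1b1, which rose.

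The 2 mutant lines were then compared directly, to ask where the drivers differed. Of the 53 tested members, 24 were higher in Sf1-Cre than in Dhh-Cre, 5 were lower and 24 did not pass, against 24.6% of all genes called, 12.9% higher and 11.8% lower. Of the 27 germ cell members, 15 were higher in Sf1-Cre, 8 of them Adam and 7 Prss genes, and 2 were lower (Prss41 and Prss50). The remaining 10 did not pass, and all of them but Adam25 and Prss55 averaged under log2 4 in both lines. Because these members had fallen in both lines, the 15 were genes that were less reduced in Sf1-Cre.

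The largest germ cell difference between the lines was that of Prss39, 13.8-fold higher in Sf1-Cre (log2 3.79 ± 0.39, limma, adjusted p = 0.000818). Adam18 was 10.5-fold higher (3.40 ± 0.43, adjusted p = 0.00192), Adam32 was 2.87 ± 0.41 higher (adjusted p = 0.0032), Adam3 2.55 ± 0.47 (adjusted p = 0.00805), Adam5 2.14 ± 0.44 (adjusted p = 0.012) and Adam2 2.05 ± 0.52 (adjusted p = 0.0271). For each of these genes all 4 Sf1-Cre arrays were above both Dhh-Cre arrays. Pdilt (4.07) and Cmtm2b (3.45) of the maturation list and 16 of 22 acrosome and fusion genes were also higher in Sf1-Cre.

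In the other direction, Prss12 was lower in Sf1-Cre by 2.86 ± 0.19 (limma, adjusted p = 0.000124), Prss36 by 2.00 ± 0.17 (0.00035), Prss50 by 1.94 ± 0.20 (0.000818), Prss41 by 1.30 ± 0.25 (0.00938) and Adam9 by 0.75 ± 0.23 (0.047). The Adam9 call was lost when any 1 of the 6 mutant arrays was left out (adjusted p = 0.0632 to 0.212). Of the 9 tested Klk genes 7 passed as higher in Sf1-Cre: Klk1b8 by 2.55, Klk1 by 2.51, Klk1b27 by 2.37, Klk1b24 by 1.89, Klk1b21 by 1.55, Klk1b1 at least 4.66-fold, and Klk1b16, for which no size is given because both lines averaged under log2 4. Adam12 and Adam8 were higher in Sf1-Cre by 1.02 and 1.40, and both calls were lost when 1 Dhh-Cre array, whichever it was, was left out; that of Adam12 was also lost without Sf1-Cre replicate 3 (adjusted p = 0.0533).

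These differences leaned on Dhh-Cre replicate 1, the array with lower germ cell levels. Without it 6 members were higher in Sf1-Cre (Adam18, Adam32, Klk1b1, Klk1b27, Prss21 and Prss39), all of them among the 24, and 4 of the 5 lower ones (Prss12, Prss36, Prss41 and Prss50) still passed. Without Dhh-Cre replicate 2 the numbers were 17 higher and 3 lower. The calls of Adam2 (limma, adjusted p = 0.0506 and 0.0507) and Klk1 (0.0718 in each case) were also lost without control replicate 1 or control replicate 2.

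**Figure D5:**
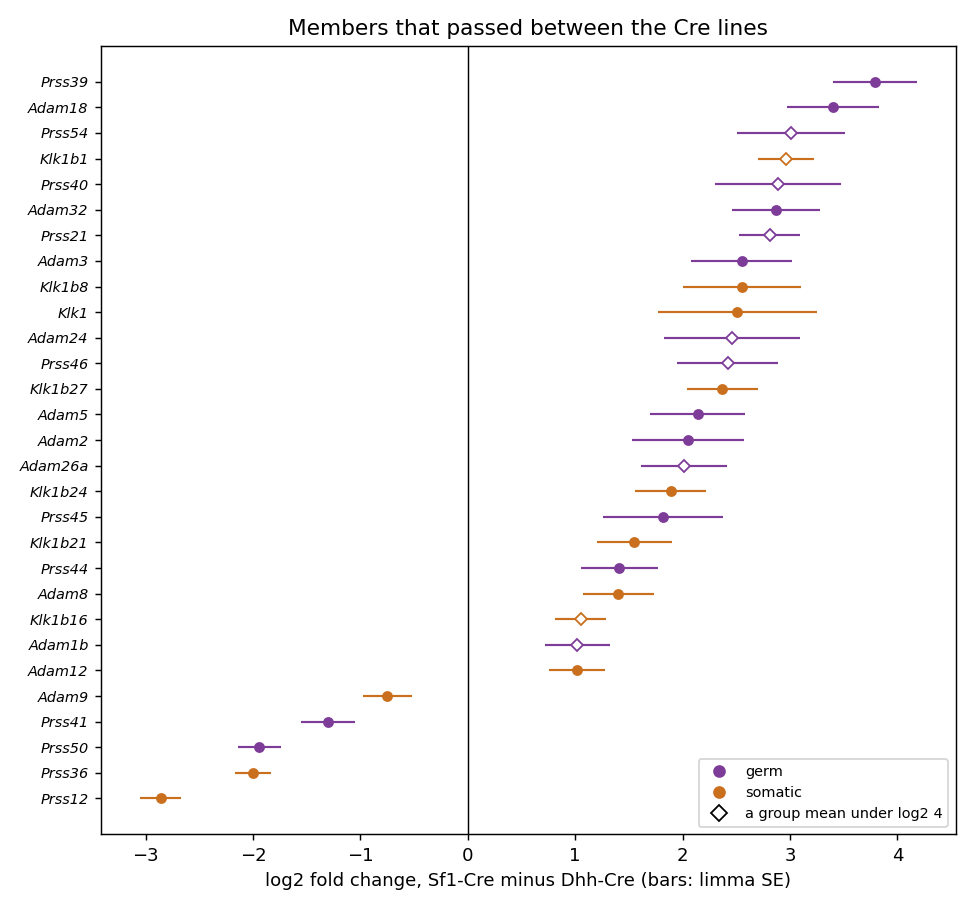
Log2 fold change of Sf1-Cre over Dhh-Cre (x axis) for the 29 members that passed between the Cre lines (y axis), with the limma standard error as bars. Colours give the germ cell and somatic classes and open diamonds mark genes with a group mean under log2 4; 24 genes lie right of 0 and 5 left of it.

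Adam7, the single epididymal member, was high on 1 array of each mutant line. It had log2 6.72, 2.20, 3.72 and 2.43 in Sf1-Cre testes, 7.59 and 1.92 in Dhh-Cre testes, and 2.58 and 2.23 in control testes. It was high on Sf1-Cre replicate 1 and Dhh-Cre replicate 1, and no comparison passed (limma, adjusted p = 0.474, 0.291 and 0.707). The epididymal genes measured beside it summed to 4648, 119, 1571 and 168 on Sf1-Cre arrays, 3660 and 94 on Dhh-Cre arrays, and 188 and 72 on control arrays, and Lcn5, Lcn8, Cst11, Rnase10 and Gpx5 were under log2 4 on all arrays. The 3 arrays with the highest sums were mutants, and the other 3 mutant arrays had sums of 94 to 168, in the range of the controls.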

How the data were processed

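The deposited values are linear probe set intensities of 8 arrays (45101 probe sets), normalised with GCRMA, per the submitters' processing notes; no raw scans were used. Intensities were turned to log2. A table of the platform's annotation gave 1 symbol to 34958 probe sets, several to 932 and none to 9211; members had 115 probe sets, and 8 more with several symbols stand apart. The probe set with the highest mean stood for its gene, and genes needed at least 2 arrays at log2 4. limma 3.58.1 (R 4.3.3; lmFit, eBayes) fitted 3 group means on all 8 arrays (5 residual degrees of freedom), with Benjamini-Hochberg adjustment over 13802 genes and a threshold of 0.05. A fold against a group whose mean is under log2 4 uses log2 4 in its place and is written "at least". Named genes were a list of well-known members, up to 4 members per family, comparison and direction with the largest change, members against their class's direction, and up to 3 genes with the lowest p per related list; Adam6b, Prss39, Prss40, Prss45, Prss46 and others are added where neighbours or groups are described. Members, classes and lists were chosen with earlier results of these data known. The fit was tested on simulated data. The labels call replicates biological, without naming animals. Array medians were 13.7 to 15.9 in intensity, and 47.6% to 49.9% of probe sets reached the limit; the number of arrays limits precision. Alternatives covered normalisation, filter, probe set choice, moderation, samples, a 2-fold limit, a replicate block and leaving out each array. Promoter windows and gene positions are RefSeq's (GRCm38.p6); the array annotation names no build.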

Additional observations from a re-analysis of the deposited data

Results flagged for a closer look

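Klk1b1 stood out for a tested difference between the 2 Cre lines, fitted at 2.96 (limma, adjusted p = 0.000418), beside fitted differences from control that did not share a sign. Its Dhh-Cre and control arrays were all under log2 4, so the Dhh-Cre difference from control has no direction and Klk1b1 was at least 4.66-fold higher in Sf1-Cre than in either.

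Prss50 stood out for fitted differences from control of opposite sign, with -0.40 in Sf1-Cre and 1.54 in Dhh-Cre and a tested difference between the lines of -1.94 (limma, adjusted p = 0.000818); the Sf1-Cre difference from control did not pass, and the Dhh-Cre one turned to -0.44 with housekeeping centring.

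A probe set listed under both Klk1b9 and Klk1b22, which no comparison used because it names no single gene, averaged log2 12.37 in Sf1-Cre testes, 10.63 in Dhh-Cre testes and 10.29 in control testes. Its arrays were at 12.00, 12.46, 12.54 and 12.48 in Sf1-Cre, 9.90 and 11.35 in Dhh-Cre, and 10.22 and 10.36 in control, with all Sf1-Cre arrays above the others. In none of the 53 tested members did a single Sf1-Cre array stand apart by Dixon's test; groups of 2 could not be examined.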

How the results depend on the processing

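Of 126 named gene results 108 passed. Of those, 86 kept direction and call under every setting that tested the gene, housekeeping centring apart. These were 39 of 43 in Sf1-Cre against control, 38 of 40 in Dhh-Cre against control and 9 of 25 between the lines. A gene that a setting did not test, such as Adam21 with a control array left out, was not counted as lost there. With housekeeping centring 88 of the 108 results were the same, 6 no longer passed and 14 turned sign. The cause was not tested. Members higher than control were then 7 in Sf1-Cre and 6 in Dhh-Cre, against 16 and 15 as deposited, and over all genes 1680 rose and 9904 fell in Sf1-Cre, against 6434 and 4586 as deposited, and 1435 and 9287 in Dhh-Cre, against 6781 and 4206. Dmrt1 in Dhh-Cre became -0.43 (limma, adjusted p = 0.148). In Sf1-Cre against control the reversed values were -1.13 for Adam10, -0.50 for Adam15, -0.32 for Adam17, -0.14 for Adam33, -0.54 for Adam7, -0.20 for Adam9, -0.66 for Prss12 and -0.52 for Prss36. In Dhh-Cre against control they were -0.85 for Adam10, -0.72 for Adam15, -0.38 for Adam17, -0.75 for Adam33, -0.83 for Klk1b21, -0.49 for Klk1b24, -1.80 for Klk1b27 and -0.44 for Prss50, and between the lines 0.06 for Adam17. Between the lines, Adam15 became -0.04 with the mean of all probe sets and -0.04 with probe sets free of a shared-target suffix.

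Leaving out each array gave 16 to 16 members higher and 24 to 34 lower in Sf1-Cre, 14 to 16 and 26 to 35 in Dhh-Cre, and 6 to 25 and 3 to 5 between the lines; with a control left out fewer genes meet the filter. It gave Klk1b27 in Dhh-Cre -0.47 to 0.82, and between the lines Adam15 -0.08 to 0.37, Adam17 -0.15 to 0.12 (0.02 without Sf1-Cre replicate 4), Prss37 -1.45 to 0.39, Prss52 -2.03 to 0.29 and Prss55 -1.23 to 0.73, each range set by the 2 Dhh-Cre arrays. Setting values under log2 4 to 4 left 16 of the 24 members higher in Sf1-Cre than in Dhh-Cre.

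The replicate numbers are shared by the groups but do not pair the arrays: deviations of same-numbered arrays correlated between -0.194 and 0.380. With the number as a replicate block, 16 members were higher and 34 lower in Sf1-Cre against control, and Adam5 there no longer passed (-0.83, limma, adjusted p = 0.132), while Klk1 there and Prss41 in Dhh-Cre now passed. Between the lines the block ended the calls of Adam12 (0.71, adjusted p = 0.0989), Klk1b21 (1.46, 0.0502) and Adam9 (-0.71, 0.156), and 3 other members passed; Adam15 became -0.05, Adam17 0.05 and Prss55 0.29, none of which passed.

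With 2 arrays in Dhh-Cre and in control, many members near the low-value limit and close copies among the Klk1b genes, small differences and single kallikrein genes are the least certain values.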
